A study of Homo sapiens with 12 samples.

Results

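Valine and isoleucine were examined as the last codon translated before a premature stop codon, in 2 libraries of reporters for nonsense-mediated mRNA decay (NMD). Each variant is known by a window of 10 bases: a penultimate codon at bases 1 to 3, a last codon at bases 4 to 6, a stop codon at bases 7 to 9 and 1 following base. A member has TAA, TAG or TGA at bases 7 to 9, no stop codon in the first 6 bases, and a valine codon (GTA, GTC, GTG or GTT) or an isoleucine codon (ATA, ATC or ATT) at bases 4 to 6. Of 5124 possible members, the EJC-independent table listed 3126 among its 41955 variants, and the EJC-enhanced table listed 3831 (74.8%) among its 51306 variants. Either table listed 4222 members, and both listed 2735. A minimum mean normalized count of 10 left 3114 members in the EJC-independent table, 1735 with valine and 1379 with isoleucine. It left 3821 members in the EJC-enhanced table, 2142 with valine and 1679 with isoleucine.

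The reporters sat at a single genomic location in HEK293T cells, a human embryonic kidney line, where Cre-Lox recombination had placed them. Cells with either library were given the SMG1 inhibitor SMG1i at 0.5 µM or the vehicle DMSO for 24 hours, and total RNA was taken. The 4 groups are SMG1i and DMSO for the EJC-independent library and SMG1i and DMSO for the EJC-enhanced library, with 3 libraries each and 12 in all. The labels call the cells wild type apart from the reporter, give TGG (tryptophan) in place of the stop codon as the control without NMD, and do not say whether replicates were separate cultures. The sources used here give neither the promoter and gene of each reporter nor the coordinates of the integration site, and a variant is therefore placed only within its window. No values per library were analysed here: each table holds 1 comparison per variant, with its standard error.

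NMD degrades mRNAs on which translation ends too early. SMG1 is the kinase that phosphorylates UPF1, a step that commits such an mRNA to decay, and an exon junction complex (EJC) downstream of the stop codon makes decay more efficient. When the ribosome reaches a stop codon, the amino acid of the last codon is held on the tRNA in the ribosomal P site, and release factor eRF1 triggers the hydrolysis that frees the peptide from it. Valine and isoleucine are aliphatic amino acids whose side chains branch at the beta carbon. Threonine shares that branch and carries a hydroxyl group, whereas leucine branches 1 carbon further out. The title of the series ties the rate of peptidyl-tRNA hydrolysis to the efficiency of NMD, and the last codon sets the amino acid that is on that tRNA.

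The 7 codons can be compared within 1 context that differs at no other base. The first 7 sequences below are members with the proline codon CCC before the last codon, the stop codon TGA and base 10 C. The next 7 are their controls, which have TGG in place of TGA. Capitals mark the last codon, and sequences are those of the deposited variants, 5′ to 3′. This context was chosen because it had the highest lowest mean normalized count among the 21 contexts in which all 14 sequences were listed in both tables.
GTA before TGA: cccGTAtgac
GTC before TGA: cccGTCtgac
GTG before TGA: cccGTGtgac
GTT before TGA: cccGTTtgac
ATA before TGA: cccATAtgac
ATC before TGA: cccATCtgac
ATT before TGA: cccATTtgac
GTA before TGG: cccGTAtggc
GTC before TGG: cccGTCtggc
GTG before TGG: cccGTGtggc
GTT before TGG: cccGTTtggc
ATA before TGG: cccATAtggc
ATC before TGG: cccATCtggc
ATT before TGG: cccATTtggc

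Throughout, the response of a variant is its log2 change of RNA under SMG1i relative to DMSO. Which treatment stands on top of the ratio is not stated in the tables, and stop variants are negative as deposited, so the sign was reversed on the reading that the inhibitor raises RNA carrying a stop codon. Every direction between treatments below rests on that reading. For the EJC-independent reporter, with sign reversed, the authors' deposited table gave the valine variants of the TGA context responses of 1.73 (GTA, SE 0.093), 1.98 (GTC, SE 0.058), 2.02 (GTG, SE 0.19) and 1.99 (GTT, SE 0.10). It gave the isoleucine variants 1.99 (ATA, SE 0.20), 1.95 (ATC, SE 0.083) and 1.86 (ATT, SE 0.091), in the same authors' deposited table. The 7 TGG controls lay between -0.14 and 0.10 in the authors' deposited table, apart from every member of the context. GTA was the lowest of the 7 codons there, and the valine and isoleucine ranges overlapped. For the EJC-enhanced reporter, the same TGA members had, in the authors' deposited table, 1.86 (GTA, SE 0.52), 2.14 (GTC, SE 0.37), 2.38 (GTG, SE 0.34) and 2.52 (GTT, SE 0.31), and 2.42 (ATA, SE 0.29), 2.17 (ATC, SE 0.30) and 2.55 (ATT, SE 0.41). Their standard errors were larger than in the EJC-independent table, and the TGG controls lay between -0.17 and 0.39 in the authors' deposited table. With TAA in place of TGA, the 7 codons spanned 1.502 to 1.86 for the EJC-independent and 2.14 to 2.497 for the EJC-enhanced reporter in the authors' deposited tables. With TAG they spanned 1.11 to 1.83 for the EJC-independent and 2.10 to 2.47 for the EJC-enhanced reporter in the authors' deposited tables. With TAG in the EJC-independent table, the authors' deposited values were highest for GTA (cccGTAtagc, SE 0.23) and lowest for GTG (cccGTGtagc, SE 0.29). These had the lowest mean normalized counts (445.6 and 474.4) and the largest standard errors of the 7 codons. The order of the codons thus varied between stop codons in this context, and the change of order was not tested.

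Members with either amino acid had higher RNA under SMG1i in both reporters. In the EJC-independent reporter, valine members averaged a response of 1.73 (SD 0.64 over 1735 variants), or 3.32-fold, and isoleucine members 1.67 (SD 0.62 over 1379 variants), or 3.18-fold. The 25850 stop variants with other last amino acids averaged 1.72 (SD 0.61). The EJC-enhanced means were 2.30 for valine members (SD 0.80 over 2142 variants), or 4.94-fold, and 2.32 for isoleucine members (SD 0.79 over 1679 variants). The 30701 other stop variants averaged 2.29 (SD 0.75). Controls with TGG centred near 0 after both amino acids: 0.01 (valine, 611 variants) and -0.02 (isoleucine, 509 variants) in the EJC-independent table, and 0.04 (valine, 855 variants) and 0.04 (isoleucine, 647 variants) in the EJC-enhanced table. Setting each member against the TGG variant with the same 6 random bases and the same base 10 gave stop minus TGG differences of 1.69 for valine (SE 0.027, 1339 pairs) and 1.67 for isoleucine (SE 0.034, 1125 pairs) in the EJC-independent reporter. The EJC-enhanced reporter gave 2.27 for valine (SE 0.027, 2002 pairs) and 2.28 for isoleucine (SE 0.029, 1590 pairs). All 4 differences passed the test, as did those of all 20 amino acids in each table (100%).

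The spread among members was mostly of the size of the measurement error. The root mean square of the deposited standard errors was 87.3% (valine) and 88.9% (isoleucine) of the SD among EJC-independent members, and 88.6% (valine) and 87.0% (isoleucine) among EJC-enhanced members. Members also had lower counts than other stop variants: their median mean normalized count was 186.7, against 254.6 for the others, in the EJC-independent table, and 113.8, against 147.6, in the EJC-enhanced table. The median standard error of 1 variant was 0.38 for members, against 0.33 for the others, and 0.60, against 0.55, in the same order of tables. In the EJC-independent set, the authors' deposited table called 2566 of 3114 members higher under SMG1i at an adjusted p under 0.05 (82.4%), against 84.8% of all stop variants, and 1 member lower, against 0.0104%. In the EJC-enhanced set, the authors' deposited table called 3219 of 3821 members higher (84.2%), against 85.7% of all stop variants, and none lower, against 0.0029%. The shares of members called were near those of all stop variants. Among TGG controls, the authors' deposited table called 47 of 1120 higher and 40 lower for the EJC-independent reporter, against 4.09% and 4.03% of all TGG variants. For the EJC-enhanced reporter, the authors' deposited table called 51 of 1502 higher and 19 lower, against 2.76% and 1.37%.

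Valine and isoleucine differ at base 4 only when their last 2 bases match (GTT and ATT, GTC and ATC, GTA and ATA), so the amino acids could be compared in the same context. In a linear fit over all stop variants, with terms for the last codon, penultimate codon, stop codon and base 10, valine members of the EJC-independent reporter were higher than isoleucine members by 0.06 (SE 0.023, adjusted p = 0.0107 over 190 pairs of amino acids), or 1.04-fold. Of those 190 pairs, 148 passed (77.9%). In 1054 pairs of variants that differ at base 4 alone, valine averaged 1.70 and isoleucine 1.65, a difference of 0.05 (95% interval 0.01 to 0.10), and valine was the higher in 55.2% of pairs. By codon, the difference was 0.10 for GTC minus ATC (interval 0.05 to 0.15, 488 pairs), 0.04 for GTT minus ATT (-0.04 to 0.11, 357 pairs) and -0.02 for GTA minus ATA (-0.16 to 0.11, 209 pairs). The interval lay above 0 for the pair that ends in C, which had the most pairs of variants. In the TGG controls of the same kind, valine minus isoleucine was 0.04 (interval -0.03 to 0.11, 395 pairs). Those controls gave 0.07 for GTC minus ATC (-0.05 to 0.19, 180 pairs) and 0.06 for GTT minus ATT (-0.07 to 0.19, 138 pairs). They gave -0.07 for GTA minus ATA (-0.23 to 0.09, 77 pairs), the same order by codon as in the stop variants. After subtraction of the matched TGG variant, valine minus isoleucine was 0.03 (interval -0.05 to 0.11, adjusted p = 0.572), which no longer passed. With the EJC-enhanced reporter, valine minus isoleucine was -0.02 in the fit (interval -0.07 to 0.03, adjusted p = 0.653, with 3.16% of pairs of amino acids passing), and valine averaged 2.31 against 2.33 for isoleucine in 1457 pairs that differ at base 4 alone, with valine the higher in 49.5%.

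Among the 20 amino acids, the EJC-independent mean of valine ranked 7th from the highest and that of isoleucine 12th. Around valine stood arginine at 1.76 and glutamate at 1.73, and neither passed against it in the fit (adjusted p = 0.775 and 0.818). Around isoleucine stood tryptophan at 1.67, which did not pass against it in the fit (adjusted p = 0.885), and leucine at 1.63, which was lower than isoleucine in the fit (adjusted p = 0.00781). Against the mean of all other last codons, isoleucine members lay lower, with a difference of -0.06 (SE 0.017, adjusted p = 0.000788), and the difference for valine was 0.01 (interval -0.03 to 0.04, adjusted p = 0.739). Over the 20 amino acids, 14 passed this test (70%). After subtraction of the matched TGG variant, the difference for isoleucine was -0.07 and still passed (adjusted p = 0.0423), as did 15 of the 20 amino acids. The difference for valine turned to -0.04 under that subtraction (adjusted p = 0.188), and it passed at 0.03 with inverse variance weights (adjusted p = 0.0160). Among EJC-enhanced means, isoleucine ranked 4th and valine 5th. Their distances from the other codons were 0.04 (isoleucine, interval -0.002 to 0.08, adjusted p = 0.230) and 0.02 (valine, interval -0.02 to 0.05, adjusted p = 0.691), where 3 of 20 amino acids passed (15%).

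Of the 18 amino acids other than these 2, 12 differed from valine and 14 from isoleucine in the EJC-independent fit. Over all pairs of amino acids 77.9% passed, a share that isoleucine was near and valine lay below. Valine was higher than 8 of them and lower than 4, and isoleucine was higher than 8 and lower than 6. Tyrosine, the amino acid with the lowest mean response, lay 0.31 below valine and 0.25 below isoleucine. Glycine, the highest, lay above both, with differences of -0.40 for valine and -0.46 for isoleucine. Threonine, the other beta-branched amino acid, had a higher response than both: valine minus threonine was -0.35 (SE 0.021, adjusted p = 5.83e-60) and isoleucine minus threonine was -0.41 (SE 0.022, adjusted p = 1.79e-79). An isoleucine codon becomes a threonine codon by a change of base 5 from T to C, and in 1199 such pairs of variants isoleucine averaged 1.66 and threonine 2.07, with isoleucine the higher in 23.7%. The difference held for each codon, at -0.45 for ATT minus ACT, -0.38 for ATC minus ACC and -0.38 for ATA minus ACA. In the TGG controls that differ in the same way, isoleucine minus threonine was 0.02 (interval -0.05 to 0.08, 454 pairs).

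Alanine, leucine and methionine, other amino acids with nonpolar side chains, lay closer to both in the EJC-independent reporter. Valine minus alanine was 0.02 (interval -0.02 to 0.06, adjusted p = 0.314), and isoleucine minus alanine was -0.04 (interval -0.08 to 0.002, adjusted p = 0.0778). Against leucine, valine was higher by 0.11 (SE 0.018, adjusted p = 2.12e-09) and isoleucine by 0.05 (SE 0.019, adjusted p = 0.00781). Against methionine, valine was higher by 0.20 (SE 0.039, adjusted p = 9.87e-07) and isoleucine by 0.14 (SE 0.039, adjusted p = 0.000875). Pairs of variants that differ at 1 base did not give the same picture throughout. In them, valine minus alanine was 0.05 (interval 0.004 to 0.096, 1455 pairs) and isoleucine minus leucine 0.04 (interval -0.005 to 0.077, 1323 pairs). Valine minus leucine was 0.10 (interval 0.06 to 0.13, 1624 pairs) and isoleucine minus methionine 0.11 (interval 0.03 to 0.19, 736 pairs). After subtraction of matched TGG variants, valine minus leucine stayed past the threshold at 0.08 (adjusted p = 0.0399), while isoleucine minus leucine was 0.05 (adjusted p = 0.305), valine minus methionine 0.12 (adjusted p = 0.200) and isoleucine minus methionine 0.09 (adjusted p = 0.361). The EJC-enhanced fit put isoleucine above arginine by 0.09 (adjusted p = 0.0315), and no other pair with valine or isoleucine passed in that linear fit, where 6 of all 190 pairs passed (3.16%). An unadjusted p under 0.05 was found for 2 pairs with valine and 4 with isoleucine. In EJC-enhanced pairs that differ at base 6 alone, isoleucine minus methionine was 0.12 (interval 0.02 to 0.22, 1133 pairs). The TGG controls of the same kind gave 0.12 (interval 0.004 to 0.23, 529 pairs), against -0.03 in the EJC-independent reporter (interval -0.14 to 0.08, 297 pairs). Isoleucine minus methionine in the linear fit was not shown to differ between the reporters (0.08, adjusted p = 0.398). In the EJC-enhanced fit, valine minus threonine was -0.03 (interval -0.07 to 0.02, adjusted p = 0.438), and isoleucine minus threonine was -0.01 (interval -0.06 to 0.04, adjusted p = 0.891). The 1588 pairs of isoleucine and threonine variants that differ at base 5 alone averaged 2.32 and 2.34 in this reporter.

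Synonymous codons of valine were not at 1 level in the EJC-independent reporter. GTG averaged 1.80 (SD 0.67, 336 variants), GTC 1.77 (SD 0.56, 578 variants), GTT 1.71 (SD 0.64, 474 variants) and GTA 1.63 (SD 0.72, 347 variants). GTA minus GTC was -0.13 (SE 0.043, adjusted p = 0.0104) and GTA minus GTG was -0.17 (SE 0.051, adjusted p = 0.00683), and the other 4 pairs of valine codons did not pass. These were 2 of the 22 pairs that passed among 87 pairs of synonymous codons (25.3%). The TGG controls of GTA averaged -0.08, against 0.04 for GTC, -0.05 for GTG and 0.08 for GTT. GTA minus GTC was -0.12 in TGG variants (SE 0.063, adjusted p = 0.702). After subtraction of matched TGG variants, GTA minus GTC was -0.05 (interval -0.20 to 0.10, adjusted p = 0.849) and GTA minus GTG -0.12 (interval -0.29 to 0.06, adjusted p = 0.570), so neither passed. The isoleucine codons averaged 1.68 (ATT), 1.68 (ATC) and 1.64 (ATA), and their 3 pairs differed by -0.022 to -0.0051, with a lowest adjusted p of 0.746 in the linear fit and none with an unadjusted p under 0.05. In the EJC-enhanced reporter, the valine codons spanned 2.29 (GTT) to 2.32 (GTC) and the isoleucine codons 2.31 (ATC) to 2.34 (ATA). None of their 9 pairs passed in the linear fit and 0 had an unadjusted p under 0.05, where 2 of 87 pairs passed overall (2.3%).

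Count depth and the share of calls also varied with the codon. Median mean normalized counts in the EJC-independent table were 297.9 for GTC and 292.4 for ATC, 171.8 for GTT and 165.9 for ATT, and 114.5 for GTA, 114.3 for GTG and 111.0 for ATA. The share of variants called higher under SMG1i in the authors' deposited table was 90.0% for GTC and 88.8% for ATC, 83.3% for GTT and 81.2% for ATT, and 74.4% for GTA, 75.9% for GTG and 73.2% for ATA. GTG thus had the highest mean response of the 7 codons and the third lowest share of calls. The part of count depth in the shares was not tested.

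EJC-independent members were higher with TGA than with either other stop codon. Valine members averaged 1.88 with TGA (SD 0.68, 561 variants), 1.68 with TAA (SD 0.60, 583 variants) and 1.64 with TAG (SD 0.61, 591 variants). Isoleucine members averaged 1.76 with TGA (SD 0.63, 449 variants), 1.62 with TAA (SD 0.59, 484 variants) and 1.62 with TAG (SD 0.64, 446 variants). TGA exceeded TAG by 0.23 after valine (SE 0.042, adjusted p = 1.73e-07) and by 0.14 after isoleucine (SE 0.045, adjusted p = 0.00361), and it exceeded TAA by 0.19 (adjusted p = 9.33e-07) and 0.13 (adjusted p = 0.00483), valine first. TAA minus TAG did not pass, at 0.04 after valine (adjusted p = 0.290) and 0.01 after isoleucine (adjusted p = 0.873). Across the 20 amino acids, 38 of 60 such contrasts passed (63.3%). All other last amino acids together averaged 1.84 with TGA, 1.69 with TAA and 1.63 with TAG.

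The 2 amino acids were not shown to differ in the size of the TGA step. Valine's TGA minus TAG difference exceeded that of isoleucine by 0.09 (interval -0.03 to 0.21, adjusted p = 0.705). In pairs of variants that differ at base 4 alone, valine minus isoleucine was 0.12 before TGA (interval 0.03 to 0.21, 338 pairs), 0.06 before TAA (interval -0.01 to 0.12, 362 pairs) and -0.02 before TAG (interval -0.09 to 0.06, 354 pairs). In a fit that adds amino acid and stop codon effects, none of the 6 combinations of valine or isoleucine with a stop codon departed from the sum, with a lowest adjusted p of 0.639 and none with an unadjusted p under 0.05, while 2 of 60 combinations passed overall (3.33%). In the EJC-enhanced reporter, valine members averaged 2.34 with TGA, 2.30 with TAA and 2.28 with TAG, and isoleucine members 2.35, 2.31 and 2.31 in the same order of stop codons. No contrast between stop codons passed after any of the 20 amino acids (0%), and neither amino acid had an unadjusted p under 0.05 in the linear fit. No combination of valine or isoleucine with a stop codon departed from the sum of effects in that reporter (0%), at an unadjusted p under 0.05 either.

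The base after the stop codon gave no difference among members that passed the test. After valine in the EJC-independent reporter, the mean response was 1.81 with A at base 10 (337 variants), 1.71 with C (560 variants), 1.66 with G (384 variants) and 1.76 with T (454 variants). After isoleucine it was 1.70 with A, 1.64 with C, 1.69 with G and 1.66 with T. The largest distances from the mean of the other 3 bases were -0.09 for G (adjusted p = 0.116) and 0.09 for A (adjusted p = 0.177), both after valine. None of the 8 tests of 1 base against the others passed in the linear fit, 2 had an unadjusted p under 0.05, and 7 of 80 passed over all amino acids (8.75%). The highest combination was TGA followed by A, at 2.00 after valine (SD 0.67, 114 variants) and 1.88 after isoleucine (SD 0.59, 92 variants). In the EJC-enhanced reporter, valine members averaged 2.36 (A), 2.31 (C), 2.26 (G) and 2.29 (T), and isoleucine members 2.26 (A), 2.34 (C), 2.36 (G) and 2.31 (T). No base passed after any amino acid there (0%), and none had an unadjusted p under 0.05 after valine or isoleucine in the linear fit. As departures from the sum of amino acid and base 10 effects, no combination passed in either reporter (0% and 0%). Among the 8 combinations with valine or isoleucine, 1 had an unadjusted p under 0.05 in the EJC-independent fit and 2 in the EJC-enhanced fit.

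The amino acid of the penultimate codon is already joined to that of the last codon when the stop codon is read. Before valine and isoleucine together in the EJC-independent reporter, the highest means followed tyrosine at 1.92 (SD 0.67, 109 variants), glutamate at 1.86 (SD 0.80, 41 variants) and isoleucine at 1.84 (SD 0.49, 124 variants). The lowest followed arginine at 1.54 (SD 0.54, 293 variants), methionine at 1.56 (SD 0.78, 33 variants) and cysteine at 1.62 (SD 0.70, 118 variants). Arginine combines the lowest mean with the fourth largest number of variants among these 20 groups. In the linear fit, arginine before valine departed by -0.03 from the sum of penultimate and last codon effects (adjusted p = 0.784). Arginine before isoleucine departed by 0.003 (adjusted p = 0.981), so a low level particular to these members was not shown. Among EJC-enhanced members, the highest means followed methionine at 2.58 (SD 1.04, 52 variants), aspartate at 2.52 (SD 0.91, 114 variants) and proline at 2.40 (SD 0.50, 330 variants). The lowest followed tryptophan at 2.02 (SD 0.96, 51 variants), asparagine at 2.17 (SD 0.84, 105 variants) and lysine at 2.23 (SD 1.03, 53 variants). None of these was among the 3 highest or the 3 lowest in both reporters at the same end, and methionine stood at opposite ends.

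Beyond the additive effects of penultimate and last codon, no pairing passed for valine or isoleucine. In the linear fit of the EJC-independent reporter, 0 of 40 combinations passed, 2 had an unadjusted p under 0.05, and 13 of 393 passed over all amino acids (3.31%). The combinations with the lowest adjusted p were glutamate before valine, 0.26 above the sum of effects (adjusted p = 0.265, 26 variants), and isoleucine before isoleucine, 0.15 above it (adjusted p = 0.275, 59 variants). In the EJC-enhanced fit, 0 of 40 passed, 1 had an unadjusted p under 0.05, and none of the 396 passed overall (0%). The lowest adjusted p there belonged to aspartate before isoleucine, 0.29 above the sum (adjusted p = 0.648, 45 variants). Where both codons coded for these amino acids, EJC-independent means were 1.75 for valine-valine, 1.79 for isoleucine-valine, 1.98 for valine-isoleucine and 1.90 for isoleucine-isoleucine, with the last codon named second. EJC-enhanced means were 2.30, 2.28, 2.18 and 2.21 in the same order.

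Valine codons after AG form the letters AGGT across the codon boundary, the core of a 5′ splice site, so these were compared with the other valine contexts. In the EJC-independent reporter, 49 variants in 12 contexts of 6 bases averaged 1.74, against 1.73 in the 1686 other valine members, and departed from the additive fit by 0.07 (SE 0.087, adjusted p = 0.815 over 4 such tests in the linear fits). In the EJC-enhanced reporter, 69 variants averaged 2.25, against 2.31 in the 2073 others, and departed by 0.02 (SE 0.092, adjusted p = 0.847). Isoleucine codons after AG form AGAT, and departed by 0.09 in the EJC-independent (SE 0.080, adjusted p = 0.815) and 0.04 in the EJC-enhanced reporter (SE 0.10, adjusted p = 0.847). After subtraction of matched TGG variants, the departure for AG before valine in the EJC-independent reporter was 0.35 (SE 0.16, unadjusted p = 0.0578). Inverse variance weights without that subtraction gave -0.07 (SE 0.072, unadjusted p = 0.357). None of the 4 departures passed in the fits without subtraction or weights, and the size for valine depended on the setting. A match of letters does not show a splice site in use.

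The place of isoleucine among the amino acids differed between the reporters. On the 26171 stop variants listed in both tables, the distance of isoleucine from the other last codons was lower in the EJC-independent than in the EJC-enhanced reporter, with a difference of -0.11 (SE 0.029, adjusted p = 0.000209). For valine the corresponding difference was -0.01 (interval -0.07 to 0.04, adjusted p = 0.710), and 13 of 20 amino acids passed (65%). Valine minus isoleucine differed between the reporters by 0.09 (SE 0.040, adjusted p = 0.0348), where 121 of 190 pairs passed (63.7%). On shared variants, isoleucine members averaged 1.67 in the EJC-independent and 2.38 in the EJC-enhanced reporter (1215 variants), and valine members 1.73 and 2.36 (1508 variants). The enhanced reporter was the higher for 81.0% of isoleucine and 77.6% of valine variants. After subtraction of matched TGG variants, the difference for isoleucine was -0.08 (adjusted p = 0.180) and that for valine minus isoleucine 0.05 (adjusted p = 0.579), and neither passed. Valine minus isoleucine between the reporters also missed the threshold with errors clustered on the penultimate codon (adjusted p = 0.0521). The 2 tables were normalized separately, so the reporters are compared here by differences within each table, and the levels set side by side carry each table's own scale.

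The TGA step after valine also differed between the reporters. These differences were fitted only on the stop variants that met the count minimum in both tables, 1508 of them with valine. On those, TGA minus TAG was larger in the EJC-independent than in the EJC-enhanced reporter by 0.28 (SE 0.068, adjusted p = 0.000423), and TGA minus TAA by 0.25 (SE 0.064, adjusted p = 0.000868). On all valine members of each table, TGA minus TAG was 0.23 in the EJC-independent and 0.05 in the EJC-enhanced reporter, which lie closer together than on the shared variants. After isoleucine the corresponding differences were 0.15 (SE 0.072, adjusted p = 0.0871) and 0.12 (SE 0.072, adjusted p = 0.204), which did not pass. Over the 20 amino acids, 19 of 60 passed (31.7%).

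Single members show how far 1 sequence could lie from these means. They were ranked among members whose mean normalized count was at least 100, and are shown as the 3 highest and 3 lowest of each amino acid, chosen for their values. In the EJC-independent table, 1123 valine members were ranked. The authors' deposited table gave the highest responses to gagGTCtgaa at 3.35 (SE 0.60), gatGTGtgac at 3.19 (SE 0.47) and ccaGTGtaaa at 3.13 (SE 0.60). It gave the lowest to gcaGTCtaac at -0.39 (SE 0.48), cagGTAtagt at 0.28 (SE 0.25) and ctaGTGtaac at 0.28 (SE 0.52), again in the authors' deposited table. Under the EJC-enhanced reporter, the authors' deposited table gave the same 3 lowest valine members 3.14 (SE 0.43), 3.02 (SE 0.89) and 2.52 (SE 0.93), where the mean for valine was 2.30. The values of cagGTAtagt and ctaGTGtaac lay within their standard errors of that mean. Their mean normalized counts there were 54.5 and 74.2, below the minimum used for the ranking. Of 909 isoleucine members ranked, the authors' deposited table gave the highest values to gtaATTtgat at 3.57 (SE 0.38), agcATAtgac at 3.21 (SE 0.39) and tcaATCtaat at 2.96 (SE 0.44). It gave the lowest to gctATCtagg at 0.08 (SE 0.23), cacATAtaac at 0.28 (SE 0.36) and cgaATAtaag at 0.41 (SE 0.40), also in the authors' deposited table. Of these, gtaATTtgat had 4.72 (SE 0.79, mean count 64.4) with the EJC-enhanced reporter and tcaATCtaat had 2.35 (SE 0.44) in the authors' deposited table, where the mean for isoleucine was 2.32. For the highest EJC-independent members, the matched TGG controls in the authors' deposited table were -0.25 (gagGTCtgaa, SE 0.53), -0.27 (gatGTGtgac, SE 0.19), -0.46 (gtaATTtgat, SE 0.53), -1.17 (agcATAtgac, SE 0.56) and -0.42 (tcaATCtaat, SE 0.23). No control was listed for ccaGTGtaaa. Members that met the count minimum of 10 in both tables were also compared. Pearson's r between the 2 responses was 0.02 over 1508 valine and -0.01 over 1215 isoleucine variants. It is given as a description of variants whose spread is close to their standard errors.

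In the EJC-enhanced table, 1134 valine members were ranked. The authors' deposited table gave the highest responses to gaaGTCtaat at 5.88 (SE 0.64), ttgGTAtgag at 5.86 (SE 0.92) and cacGTGtgaa at 4.90 (SE 0.54). For the EJC-independent reporter, the authors' deposited table gave the same 3 sequences 1.62, 1.84 and 2.23, where the mean for valine was 1.73. The lowest in the authors' deposited table were gttGTAtagc at -0.97 (SE 1.03), ctcGTGtaaa at 0.04 (SE 0.98) and tcgGTTtgat at 0.15 (SE 0.72). For the EJC-independent reporter, the authors' deposited table gave them 1.37 (SE 0.57, mean count 67.2), 2.35 (SE 0.37) and 0.85 (SE 0.39). Of these, tcgGTTtgat lay furthest below the valine mean there. Of 973 isoleucine members ranked, the highest in the authors' deposited table were accATAtaaa at 5.91 (SE 0.93), tcgATAtagt at 4.69 (SE 0.94) and gcaATTtgac at 4.66 (SE 0.81). For the EJC-independent reporter, their values in the authors' deposited table were 1.95, 0.70 and 1.52. The lowest isoleucine members in the authors' deposited table were tttATAtagg at -0.94 (SE 0.95), aatATCtaag at -0.16 (SE 0.94) and tacATTtaac at 0.17 (SE 0.77). For the EJC-independent reporter, aatATCtaag had 1.68 (SE 0.79, mean count 57.4) and tacATTtaac 1.39 (SE 0.27) in the authors' deposited table. There tttATAtagg was not listed. For the EJC-enhanced reporter, the authors' deposited table gives no p-value for gttGTAtagc, ctcGTGtaaa or tcgATAtagt. Standard errors of the 12 sequences shown for the EJC-enhanced reporter ran from 0.54 to 1.03. For the highest EJC-enhanced members, the matched TGG controls in the authors' deposited table were 1.59 (ttgGTAtgag, SE 0.63), 0.31 (cacGTGtgaa, SE 0.54), 0.31 (tcgATAtagt, SE 0.63) and 0.92 (gcaATTtgac, SE 0.72). No control was listed for gaaGTCtaat or accATAtaaa.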

How the data were processed

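The authors deposited 1 table per reporter library, and no value per library was analysed here, so depth per library is unknown. The submitters' processing notes name DESeq and DESeq2; the sources used here do not give versions, read processing or how reads were assigned to variants. Per the file headers, each variant has a mean normalized count (a signal averaged over the 6 libraries of that reporter), its log2 fold change and standard error, a Wald score, a p-value and a Benjamini-Hochberg adjusted p-value. The deposited log2 values do not name their numerator, and their sign was reversed here.

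Variants were kept at a mean normalized count of 10 or more. Responses of all stop variants of a table were fitted by ordinary least squares with terms for last codon, penultimate codon, stop codon and base 10. Errors were clustered on the 6 random bases, tests were two-sided, and p-values were adjusted by Benjamini-Hochberg over all tests of a kind in a table. Combinations were each tested as 1 added term in the fit, with a t distribution on the number of contexts less 1. Their design named a normal test, which simulated data showed to call small combinations too often. Stop minus matched TGG is a mean difference with the same clusters, and pairs that differ at 1 base are clustered on the penultimate codon. Intervals are 95%, at 1.96 standard errors. P-values describe spread between sequences in the same libraries, not between cultures. The comparison of valine with isoleucine in the TGA step was added later. The scripts, tested on simulated data, used Python 3.11.15, numpy, pandas and scipy.

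Named single variants are the 3 highest and 3 lowest of each amino acid at a mean count of at least 100, and penultimate amino acids the 3 highest and 3 lowest means. Members and lists were chosen with earlier results of these data known. Alternatives were the count minimum, inverse variance weights, matched TGG subtraction, matched contexts, other clusters and other call thresholds.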

Additional observations from a re-analysis of the deposited data

Results flagged for a closer look

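These 4 results are listed because the same contrast gave different effects in the 2 reporters, by a test of the difference itself. Each is given as EJC-independent minus EJC-enhanced, on the stop variants that met the count minimum of 10 in both tables. Such differences were common, passing for 65% of the amino acids against the others, 63.7% of pairs of amino acids and 31.7% of stop codon contrasts. The distance of isoleucine from the other last codons differed by -0.11 (adjusted p = 0.000209), and valine minus isoleucine by 0.093 (adjusted p = 0.0348). The TGA minus TAG difference after valine differed by 0.28 (adjusted p = 0.000423), and TGA minus TAA after valine by 0.25 (adjusted p = 0.000868). The first pair did not pass once matched TGG variants were subtracted, and valine minus isoleucine did not pass with errors clustered on the penultimate codon either (adjusted p = 0.0521). The TGA differences after valine were not among the results given alternative values, so how they depend on the processing is unknown. The tables differ in count depth, with a median mean normalized count of members of 186.7 in the EJC-independent and 113.8 in the EJC-enhanced table, and the part of depth in these differences was not tested.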

How the results depend on the processing

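Across 27 results and 140 alternative values, 125 kept their direction and their side of the threshold, or stayed within 1.5 times for counts. With matched TGG subtraction, valine minus the others in the EJC-independent reporter was -0.041 in place of 0.0054, valine minus isoleucine 0.031 (adjusted p = 0.572), and 0 in place of 2 synonymous pairs passed; AG before EJC-independent valine was 0.35 (SE 0.16) in place of 0.075. The same subtraction brought the differences between reporters to -0.080 for isoleucine (adjusted p = 0.180) and 0.052 for valine minus isoleucine (adjusted p = 0.579); this uses fewer variants and adds the error of the controls. Inverse variance weights gave 0.030 for EJC-independent valine against the others (adjusted p = 0.0160), 1 penultimate combination (isoleucine before isoleucine) in place of 0, -0.069 for AG before EJC-independent valine, -0.019 for AG before EJC-enhanced valine, and 0.0028 for the difference of valine between reporters. A count minimum of 50 gave 0.051 for EJC-enhanced isoleucine against the others (adjusted p = 0.0477), -0.096 for AG before EJC-enhanced valine and 0.012 for valine between reporters, and no minimum gave -0.0030 for AG before EJC-enhanced valine. Errors clustered on the penultimate codon left valine minus isoleucine between reporters at 0.093 (adjusted p = 0.0521). The cause of these changes was not tested. No paired analysis was possible because the tables hold no value per library; for the same reason no replicate could be left out and no other size factors tried.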
